A study of Homo sapiens with 12 samples.

Results

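The genes described here are 6 transcription factors of the epithelial-mesenchymal transition (EMT), namely ZEB1, ZEB2, SNAI1, SNAI2, TWIST1 and TWIST2, with VIM (vimentin) and CDH2 (N-cadherin). They were taken by name, as the regulators and markers most used to define the transition, and are 8 of the 28747 gene identifiers in the count table. The genes lie on GRCh38 (GENCODE release 44) at chr10:31318495-31529814 (ZEB1), chr2:144364364-144521057 (ZEB2), chr20:49982980-49988886 (SNAI1), chr8:48917598-48921740 (SNAI2), chr7:19020991-19117636 (TWIST1), chr2:238848032-238910534 (TWIST2), chr10:17228241-17237593 (VIM) and chr18:27932879-28177946 (CDH2). The question was whether a mesenchymal regulator moved in the cells that lost epithelial genes. The libraries came from DU145, an established line of human prostate cancer cells. The cells carried a lentiviral hairpin, either the control hairpin (shCtrl) or the knockdown hairpin (shSigma), and were selected with puromycin. Both kinds of cells were grown attached to plastic with serum (adhesion) and as tumor spheres, which are floating aggregates grown without serum in a medium with growth factors that enriches for stem-like cells. There were 3 libraries in each of the 4 groups, 12 in all, described by the study as biological replicates. There was 1 shCtrl and 1 shSigma line, so the hairpin and the history of its line cannot be told apart, and the hairpin sequenced is not given in the sources used here. Spheres and adherent cells also differed in serum and medium, so attachment and medium cannot be told apart.

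In EMT, epithelial cells lose their junctions and polarity and acquire motility. ZEB1, ZEB2, SNAI1 (Snail) and SNAI2 (Slug) are zinc finger repressors that bind E-box motifs in the promoters of epithelial genes such as CDH1 (E-cadherin), while TWIST1 and TWIST2 are basic helix-loop-helix factors. VIM is the intermediate filament of mesenchymal cells and CDH2 the cadherin that often takes the place of CDH1. The microRNAs of the miR-200 family target ZEB1 and ZEB2 mRNA, and ZEB1 in turn represses the miR-200 genes.

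The sequences behind that mutual repression are shown because ZEB1, ZEB2 and MIR200CHG, the host RNA of miR-200c and miR-141, carry much of what follows. The 5 mature microRNAs, from RefSeq on GRCh38.p14, fall into 2 groups by the seed (bases 2 to 8, in capitals). The microRNAs themselves were not measured in these libraries.
hsa-miR-200a-3p, chr1:1167916-1167937: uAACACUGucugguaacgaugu
hsa-miR-141-3p, chr12:6964155-6964176: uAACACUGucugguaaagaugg
hsa-miR-200b-3p, chr1:1167160-1167181: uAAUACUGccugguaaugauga
hsa-miR-200c-3p, chr12:6963742-6963764: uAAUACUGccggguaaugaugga
hsa-miR-429, chr1:1169055-1169076: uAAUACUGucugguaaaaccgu

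The 3' UTR of the GENCODE canonical ZEB1 transcript, 2540 bases long, held 6 matches to the AAUACUG seed and 3 to the AACACUG seed. That of ZEB2, 5370 bases long, held 5 and 4. A match is a run of 7 bases complementary to the seed, written in DNA letters and in capitals, and 1 of each kind is shown per gene with the bases before it. These matches are a description of the sequence and not measured sites.
ZEB1 site, chr10:31527618-31527640, plus strand: attgttttatcttatCAGTATTa
ZEB1 site, chr10:31528782-31528804, plus strand: tgagatttgatttaaCAGTGTTa
ZEB2 site, chr2:144388989-144389011, minus strand: cgcactacaatgcatCAGTATTa
ZEB2 site, chr2:144389236-144389258, minus strand: tgcaaaaattttgtaCAGTGTTa

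Depth ranged from 16472722 counts in a tumor sphere shCtrl library to 26957777 counts in an adherent shCtrl library. Keratins KRT7, KRT8, KRT18 and KRT19 were between 63.7 and 1992 CPM (counts scaled to a common library size) in all libraries, whereas KLK3 had at most 2 counts. CPM here are scaled over all 12 libraries, and fold changes are fitted per comparison, so both can differ slightly.

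Per length, VIM was the most abundant of the 8 genes in each group. TWIST1 and CDH2 were the least abundant except in shCtrl spheres, where ZEB2, at 0.00961 FPKM, was below TWIST1, at 0.0276. In adherent shCtrl cells the levels in FPKM, which are CPM divided by the exon length in kilobases, were 170 ± 8.96 for VIM, 2.54 ± 0.0914 for ZEB1, 2.18 ± 0.0993 for TWIST2 and 2.12 ± 0.793 for SNAI1 (SD, n = 3). ZEB1, TWIST2 and SNAI1 could not be ordered beyond the spread of SNAI1. SNAI2 was lower, at 0.215 ± 0.00959 FPKM, and ZEB2 was at 0.102 ± 0.0138, a value lowered by the 26151 exon bases annotated for that gene. TWIST1 and CDH2 had between 0 and 3 counts in every library, so that no fold change is given for either of them, and CDH2 was at most 0.106 CPM.

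**Figure D1:**
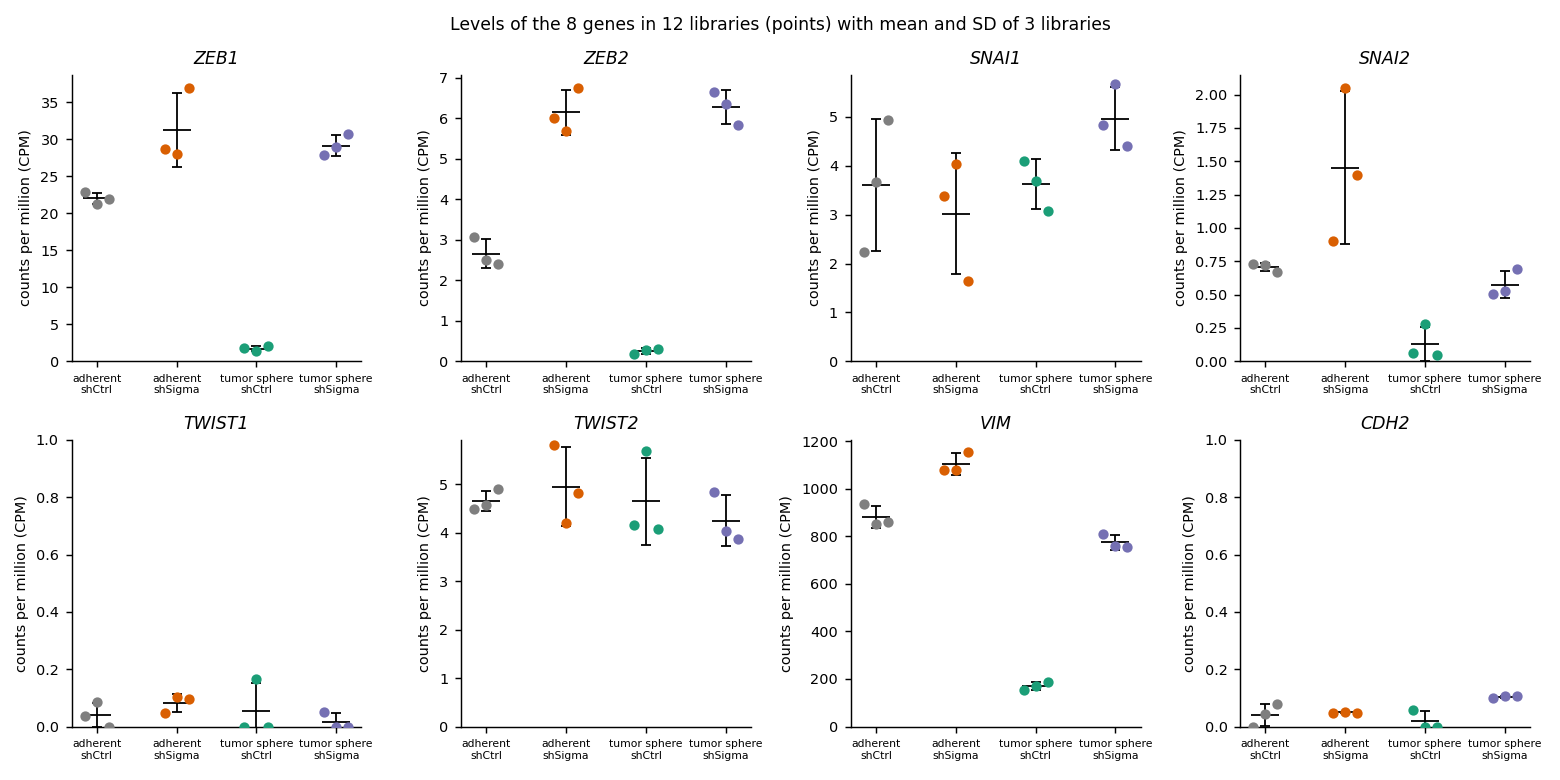
Levels of the 8 genes in CPM (vertical axis, from 0, a scale for each gene), with 1 point per library, the mean as a bar and the SD of 3 libraries as whiskers, for the 4 groups on the horizontal axis. ZEB1, ZEB2 and VIM were lowest in tumor sphere shCtrl libraries, at 1.72, 0.251 and 170 CPM on average, while TWIST2 showed overlapping groups.

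ZEB1, a repressor of CDH1, was low in 1 group only. It counted 22.8, 21.2 and 21.9 CPM in the adherent shCtrl libraries and 28.7, 27.9 and 36.9 CPM in the adherent shSigma libraries. In tumor spheres it counted 1.76, 1.32 and 2.07 CPM with shCtrl and 27.9, 28.9 and 30.7 CPM with shSigma. The shCtrl spheres therefore stood far below the other 3 groups, and the 2 shSigma groups overlapped. ZEB1 was 16.8-fold higher in shSigma than in shCtrl spheres (log2 fold change 4.07 ± 0.13, SE, edgeR adjusted p = 5.45e-10). In adherent cells it was 1.35-fold higher (log2 0.44 ± 0.11, edgeR adjusted p = 0.0111), with groups that did not overlap. Groups did not overlap there for 57.9% of all genes tested.

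ZEB2, the paralogue of ZEB1, followed the same order at a lower level. Its counts were 80, 59 and 61 in adherent shCtrl, 126, 111 and 140 in adherent shSigma, 3, 5 and 6 in tumor sphere shCtrl and 132, 120 and 110 in tumor sphere shSigma libraries. The 2 shSigma groups overlapped, and every library of shCtrl spheres was near the limit of detection. ZEB2 was 24.0-fold higher in shSigma spheres (log2 4.59 ± 0.23, edgeR adjusted p = 1.44e-08). In spheres it passed the filter on low counts only through the shSigma libraries, so this direction was fixed by the filter. In CPM the pooled ratio had an exact 95% Poisson interval of 14.5 to 45.7, which covers counting error only. In adherent cells it was 2.20-fold higher with shSigma (log2 1.14 ± 0.15, edgeR adjusted p = 7.10e-04).

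VIM, the structural filament protein, was abundant in every library. It counted 936, 852 and 859 CPM in adherent shCtrl and 1078, 1077 and 1155 CPM in adherent shSigma libraries. In tumor spheres it counted 152, 169 and 188 CPM with shCtrl and 810, 758 and 755 CPM with shSigma, so the 4 groups did not overlap. Between hairpins, groups did not overlap for 57.9% of all genes tested in adherent cells and 66.8% in spheres. VIM rose 4.55-fold with shSigma in spheres (log2 2.18 ± 0.08, edgeR adjusted p = 9.14e-10) and 1.20-fold in adherent cells (log2 0.26 ± 0.07, edgeR adjusted p = 0.0207). The adherent call was lost without shCtrl replicate 2 (edgeR adjusted p = 0.0619).

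SNAI2, a zinc finger repressor related to SNAI1, was rare. It had 19, 17 and 17 counts in adherent shCtrl and 19, 40 and 29 in adherent shSigma libraries, and 1, 5 and 1 and then 10, 10 and 13 in shCtrl and shSigma spheres. Counts did not overlap between the shCtrl and shSigma spheres, where CPM did not overlap for 66.8% of genes tested. In adherent cells 1 library of each group had 19 counts. In CPM the groups, at 0.670 to 0.729 and 0.904 to 2.05, did not overlap, as for 57.9% of genes tested. In adherent cells SNAI2 was 1.95-fold higher with shSigma (log2 0.96 ± 0.33, edgeR adjusted p = 0.0415), a call that was lost without any of 5 of the 6 libraries (shSigma replicate 2 or 3 and shCtrl replicate 1, 2 or 3, edgeR adjusted p = 0.0513 to 0.110) and in DESeq2 (adjusted p = 0.132). In spheres it did not pass the filter on low counts. The ratio of its CPM was 4.47 there, with an exact 95% Poisson interval of the pooled counts from 1.96 to 12.1, and without the filter edgeR gave a log2 fold change of 2.11 ± 0.59 (adjusted p = 0.00168).

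SNAI1, the Snail repressor of CDH1, spread widely within the adherent groups. It had 58, 87 and 125 counts in adherent shCtrl, 71, 79 and 34 in adherent shSigma, 70, 67 and 61 in tumor sphere shCtrl and 96, 107 and 83 in tumor sphere shSigma libraries. Adherent groups overlapped throughout (log2 -0.31 ± 0.41, 95% interval -1.12 to 0.51, edgeR adjusted p = 0.574). In spheres SNAI1 was 1.37-fold higher with shSigma (log2 0.46 ± 0.16, edgeR adjusted p = 0.0266). That call was lost without shSigma replicate 2 or shCtrl replicate 3 (edgeR adjusted p = 0.113 and 0.104), in DESeq2 (adjusted p = 0.0849) and in 1 fit of all 12 libraries (edgeR adjusted p = 0.248).

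TWIST2 was detected at the same order of level in every library, with 71 to 124 counts. It had 4.65 ± 0.212 CPM in adherent shCtrl, 4.94 ± 0.811 in adherent shSigma, 4.64 ± 0.905 in tumor sphere shCtrl and 4.24 ± 0.521 in tumor sphere shSigma cells (SD, n = 3). All 4 groups overlapped. The 95% interval of its knockdown log2 fold change was -0.28 to 0.33 in adherent cells (edgeR adjusted p = 0.897) and -0.46 to 0.20 in spheres (edgeR adjusted p = 0.521).

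CDH2 had 0, 1 and 2 counts in adherent shCtrl, 1 in each adherent shSigma, 1, 0 and 0 in tumor sphere shCtrl and 2 in each tumor sphere shSigma library. TWIST1, a factor that activates CDH2 in other cells, had 0 to 3 counts per library, 12 in all. N-cadherin RNA was thus at the floor of 3 counts, 0.115 to 0.176 CPM depending on the library, in all 4 groups. Neither gene was detectable as a difference at this depth.

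Counted over the comparison, 4 of the 6 members that passed the filter were called higher in adherent shSigma cells and 0 lower, beside 50.0% of all 13764 genes tested called in either direction and 22.3% called higher. Of these, ZEB2 was also over 2-fold, beside 7.59% of genes higher by that size. In tumor spheres 4 of the 5 that passed were called higher, beside 61.1% called in either direction and 30.2% called higher among 13774 genes, and ZEB1, ZEB2 and VIM were over 2-fold, beside 5.94% of genes. TWIST1 and CDH2 did not pass in either comparison, and SNAI2 did not pass in spheres. ZEB2 passed in spheres only through shSigma, so its direction in these counts was fixed by the filter. Without ZEB2, the members called higher in spheres were ZEB1, VIM and SNAI1, and TWIST2 was not called.

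The difference between the knockdown effects in the 2 cultures was tested by an interaction term in a fit of the 12 libraries. It was called for ZEB1 (log2 3.57 ± 0.19, edgeR adjusted p = 2.84e-08), ZEB2 (log2 3.39 ± 0.28, edgeR adjusted p = 1.33e-06) and VIM (log2 1.87 ± 0.11, edgeR adjusted p = 7.26e-08), each a larger rise in spheres. These are 3 of the 6 members tested, beside 28.4% of genes called in either direction, 12.7% called higher and 2.50% higher by over 2-fold. SNAI1 (log2 0.72 ± 0.45, edgeR adjusted p = 0.268), SNAI2 (log2 1.10 ± 0.72, edgeR adjusted p = 0.267) and TWIST2 (log2 -0.22 ± 0.23, edgeR adjusted p = 0.540) did not pass.

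The same groups compared across cultures gave the values behind that difference. In shCtrl cells, 4 of the 6 tested members were lower in spheres than in adherent cells, beside 53.7% of genes called, 26.3% called lower and 4.96% lower by over 2-fold. ZEB1 was 12.7-fold lower (log2 -3.67 ± 0.16), ZEB2 10.3-fold (log2 -3.36 ± 0.27), VIM 5.20-fold (log2 -2.38 ± 0.09) and SNAI2 5.36-fold (log2 -2.42 ± 0.51), with edgeR adjusted p between 1.03e-06 and 0.00431. ZEB2 had 3 to 6 counts in shCtrl spheres and SNAI2 had 1 to 5. Both passed the filter only through the adherent libraries, so their direction was fixed by the filter. The SNAI2 value was -3.57 without tumor sphere shCtrl replicate 2, the library with 5 counts. SNAI1 differed by 0.00 (95% interval -0.56 to 0.56) and TWIST2 by 0.00 (-0.32 to 0.32) on the log2 scale.

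In shSigma cells ZEB1 and ZEB2 in spheres did not differ detectably from adherent cells, while VIM and SNAI2 were lower. ZEB1 differed by log2 -0.07 ± 0.10 (95% interval -0.27 to 0.12, edgeR adjusted p = 0.571) and ZEB2 by 0.05 ± 0.11 (95% interval -0.17 to 0.28, edgeR adjusted p = 0.709). VIM was 1.40-fold lower (log2 -0.49 ± 0.05, edgeR adjusted p = 2.02e-04) and SNAI2 2.46-fold lower (log2 -1.30 ± 0.37, edgeR adjusted p = 0.0210), which makes 2 of 6 members, beside 47.1% of genes called, 25.2% called lower and 3.56% lower by over 2-fold. SNAI2 had 10, 10 and 13 counts in shSigma spheres, where replicate 1 was just below the filter's minimum at its depth. SNAI2 thus passed only through the adherent libraries, and its direction was favoured by the filter. The SNAI2 call was lost without tumor sphere shSigma replicate 1 or 2 (edgeR adjusted p = 0.0785 and 0.0752). SNAI1 was 1.67-fold higher without passing (edgeR adjusted p = 0.0971). Without adherent shSigma replicate 2 it was called at log2 1.01 (edgeR adjusted p = 0.0412), and without replicate 3 at log2 0.42 (edgeR adjusted p = 0.0384).

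**Figure D2:**
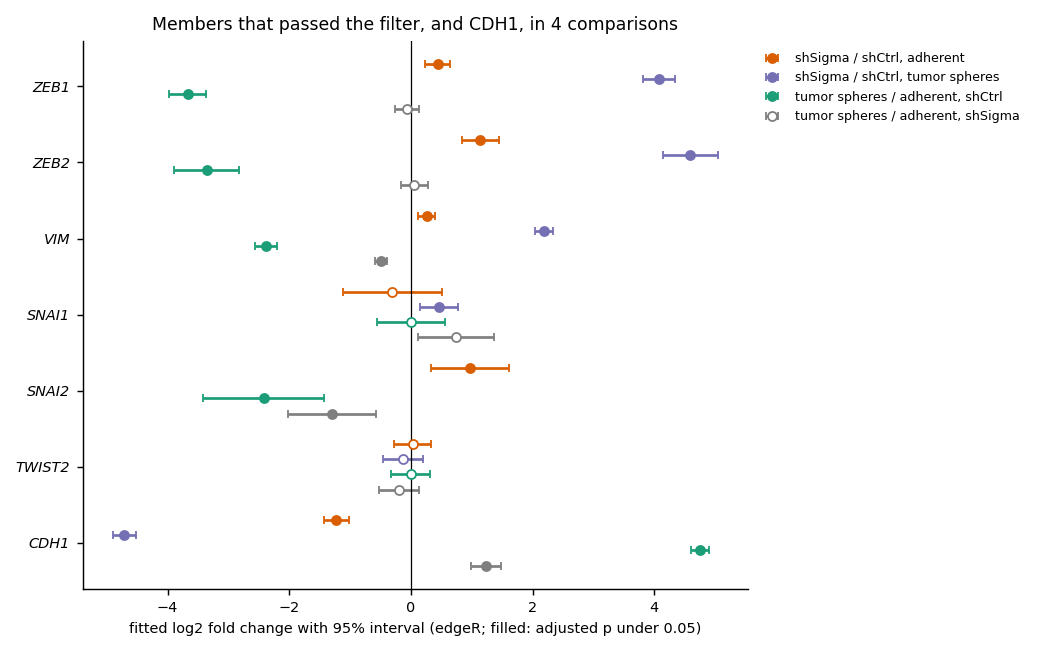
Fitted log2 fold changes (horizontal axis) with 95% intervals of the 6 members that passed the filter and of CDH1, in 4 comparisons, filled where the edgeR adjusted p was under 0.05. ZEB1, ZEB2 and VIM lie opposite to CDH1 in both knockdown comparisons and in shCtrl spheres against adherent cells, with ZEB1 at 4.07 and CDH1 at -4.71 for the knockdown in spheres. In shSigma spheres against adherent cells CDH1 was at 1.23, while the ZEB1 and ZEB2 intervals covered 0.

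CDH1, the junction protein repressed by ZEB factors, was highest in the group where ZEB1 and ZEB2 were lowest. Among the other 3 groups, some overlapped in ZEB1 and some in CDH1. CDH1 counted 26.8, 26.8 and 26.9 CPM in adherent shCtrl and 10.7, 11.4 and 13.9 CPM in adherent shSigma libraries. In spheres it counted 732, 678 and 770 CPM with shCtrl and 23.9, 30.1 and 29.3 CPM with shSigma. CDH1 thus reached its high level in shCtrl spheres alone. Its level in shSigma spheres overlapped that in adherent shCtrl cells, and ZEB1 was higher in the former. Those groups differ in both hairpin and culture, and a part of ZEB1 in the CDH1 level was not tested. CDH1 was 26.2-fold lower with shSigma in spheres (log2 -4.71 ± 0.10, edgeR adjusted p = 3.46e-11) and 2.34-fold lower in adherent cells (log2 -1.23 ± 0.10, edgeR adjusted p = 7.86e-05). The interaction was log2 -3.55 ± 0.15 (edgeR adjusted p = 1.73e-09), where 15.6% of genes were called lower. In shSigma cells CDH1 was 2.35-fold higher in spheres than in adherent cells (log2 1.23 ± 0.12, edgeR adjusted p = 1.86e-04), while ZEB1 and ZEB2 did not differ detectably.

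Most of the factors that keep cells epithelial and passed the filter in spheres fell with shSigma there. Of 17 such genes, 13 passed the filter in spheres, and 11 were lower and 1 higher with shSigma, with a median log2 fold change of -1.15 beside 0.00 over all genes, of which 30.9% were called lower. In adherent cells 7 were lower and 2 higher of 12, with a median of -0.61 beside -0.01 over all genes, of which 27.7% were called lower. GRHL2, OVOL1 and OVOL2 in spheres, and GRHL2 and OVOL2 in adherent cells, did not pass the filter in the 6 shSigma libraries and passed only through shCtrl, so their direction was fixed by the filter. Without them 8 of 10 were lower in spheres (median log2 -0.82) and 5 of 10 in adherent cells (median log2 -0.41). The 5 include MIR200CHG, which in the adherent comparison also passed only through shCtrl. ESRP1, the splicing regulator of epithelial isoforms, was 58.0-fold lower in spheres and 30.7-fold lower in adherent cells (log2 -5.86 ± 0.11 and -4.94 ± 0.15, edgeR adjusted p = 8.36e-12 and 1.97e-06). KLF5, a transcription factor of epithelial cells, went the other way in both cultures (log2 0.71 ± 0.08 and 1.03 ± 0.07), and ELF3 rose in adherent cells (log2 1.68 ± 0.15, edgeR adjusted p = 1.03e-04) and fell in spheres (log2 -0.54 ± 0.07, edgeR adjusted p = 5.59e-05).

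GRHL2, a grainyhead factor that opposes ZEB1, had 31, 27 and 24 counts in adherent shCtrl and 621, 652 and 670 in tumor sphere shCtrl libraries. It had exactly 1 count in each of the 6 shSigma libraries. In spheres the ratio of shSigma to shCtrl CPM was 0.00147, with an exact 95% Poisson interval of 0.000304 to 0.00432. OVOL2, a repressor of ZEB1, fell 12.5-fold in spheres and 4.27-fold in adherent cells (edgeR adjusted p = 4.06e-08 and 9.53e-04). Both GRHL2 and OVOL2 passed only through shCtrl, so these directions were fixed by the filter. OVOL2 was also chosen after its values were seen.

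MIR200CHG, from which miR-200c and miR-141 are processed, had 66, 49 and 40 counts in adherent shCtrl and 12, 8 and 14 in adherent shSigma libraries. In spheres it had 62, 105 and 95 with shCtrl and 15, 14 and 12 with shSigma. It was 6.64-fold lower with shSigma in spheres (log2 -2.73 ± 0.24, edgeR adjusted p = 1.46e-06) and 3.87-fold lower in adherent cells (log2 -1.95 ± 0.29, edgeR adjusted p = 0.00105). The adherent shSigma library with 8 counts was below the filter's minimum. In adherent cells MIR200CHG thus passed only through shCtrl, and its direction there was favoured by the filter. With that limit, the RNA that hosts 2 of the microRNAs shown above was lower where ZEB1 and ZEB2 were higher in both cultures. The difference between cultures did not pass (log2 -0.84 ± 0.41, edgeR adjusted p = 0.148).

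**Figure D3:**
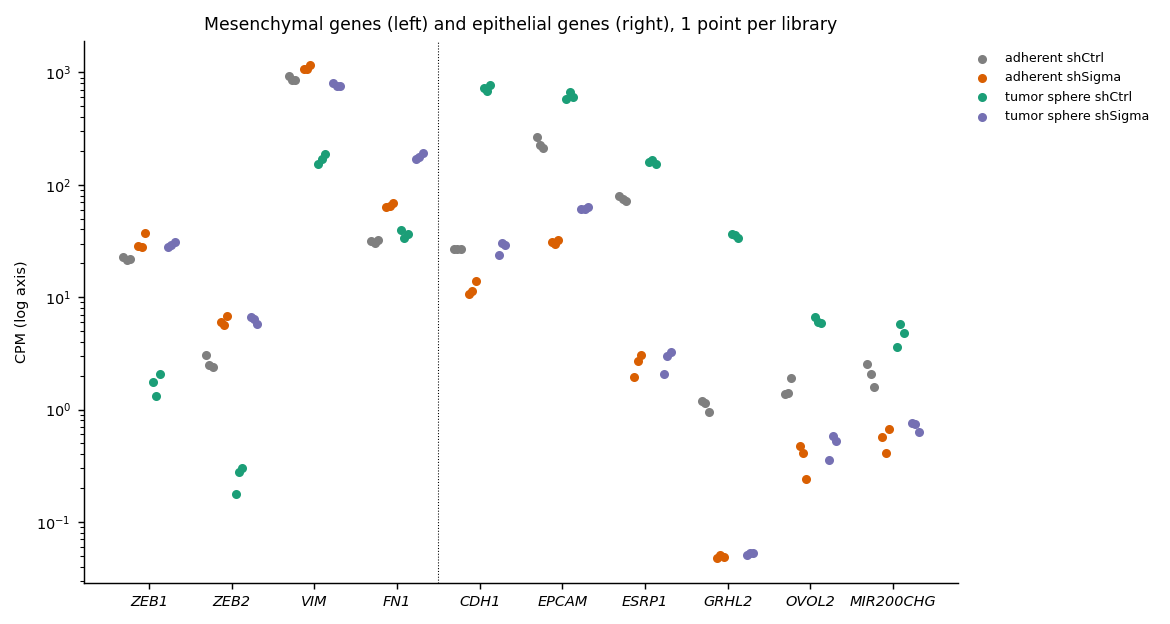
CPM on a log axis in the 12 libraries, 1 point each, for 4 mesenchymal genes (left of the dotted line) and 6 epithelial genes (right), coloured by group. In tumor sphere shCtrl libraries ZEB1, ZEB2 and VIM were lowest and CDH1, EPCAM, ESRP1, GRHL2, OVOL2 and MIR200CHG highest, with CDH1 at 678 to 770 CPM. FN1 was instead lowest in adherent shCtrl libraries, at 30.2 to 32.4 CPM beside 33.9 to 39.7 in shCtrl spheres.

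Among 45 epithelial genes of junctions, keratins and membrane proteins, 43 passed the filter in spheres, of which 29 were lower and 6 higher with shSigma (median log2 -0.89), or 67.4% and 14%, beside 30.9% and 30.2% of all genes. In adherent cells 16 were lower and 11 higher of 39 (median log2 -0.06), or 41% and 28.2%, closer to the 27.7% and 22.3% of all genes. In spheres 5 of the 43 did not pass in the 6 shSigma libraries, and without them 25 of 38 were lower. CLDN7, a tight junction claudin, was lower in both cultures (log2 -4.48 ± 0.07 and -4.06 ± 0.19), as was EPCAM, an epithelial adhesion molecule (log2 -3.31 ± 0.06 and -2.99 ± 0.11). CLDN4, another claudin, rose in both (log2 0.96 ± 0.09 and 3.69 ± 0.17). In shCtrl cells 35 of 43 epithelial genes were higher in spheres than in adherent cells and 2 lower, beside 27.4% of all genes called higher. In shSigma cells 20 of 38 were higher and 7 lower, beside 21.9% called higher.

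Among 47 mesenchymal genes of matrix, cytoskeleton and adhesion, 33 passed in each culture, of which 17 rose and 8 fell with shSigma in spheres and 13 rose and 10 fell in adherent cells. These were 51.5% and 24.2% in spheres, beside 30.2% and 30.9% of all genes, and 39.4% and 30.3% in adherent cells, beside 22.3% and 27.7%. The medians were log2 0.34 and 0.18. COL1A2 and COL5A1 passed only through shCtrl in both cultures, so their direction was fixed by the filter. Without them 17 rose and 6 fell of 31 in spheres (median log2 0.56). In adherent cells 13 rose and 8 fell of 31 (median log2 0.20). TNC, the matrix protein tenascin C, rose in both (log2 3.05 ± 0.09 and 2.42 ± 0.08), as did FN1 (fibronectin, log2 2.29 ± 0.07 and 1.00 ± 0.06). LOX, a collagen crosslinking enzyme, rose in adherent cells (log2 2.76 ± 0.09) and did not pass in spheres (log2 0.56 ± 0.33, edgeR adjusted p = 0.166). COL5A1, a fibrillar collagen that passed the filter only through shCtrl libraries, was lower in both (log2 -4.95 ± 0.28 and -3.64 ± 0.43), as was FSTL1 (log2 -2.10 ± 0.13 and -1.05 ± 0.10). Among the 6 of 12 cadherins and catenins that passed, CDH3 (P-cadherin) fell with CDH1 (log2 -3.60 ± 0.12 in spheres and -0.86 ± 0.11 in adherent cells).

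**Figure D4:**
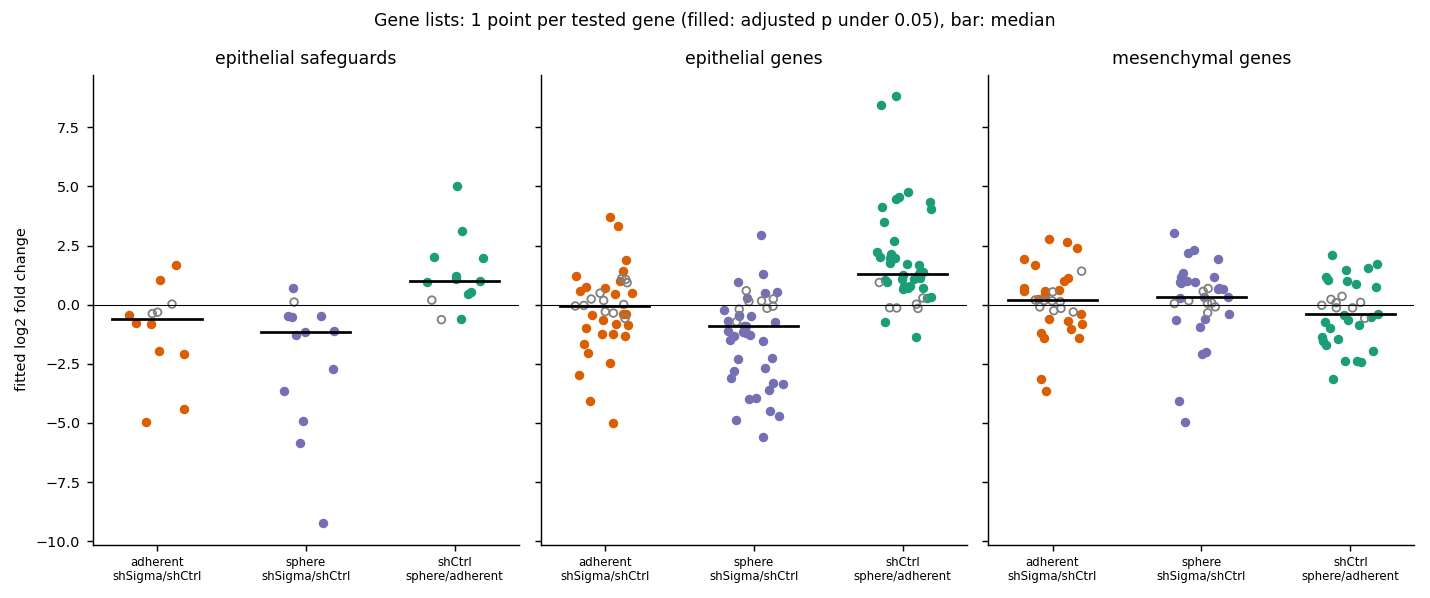
Fitted log2 fold changes (vertical axis) of the tested genes of 3 lists in 3 comparisons, 1 point per gene, filled where the edgeR adjusted p was under 0.05, with the median as a bar. In spheres the medians with shSigma were -1.15, -0.89 and 0.34 for epithelial safeguards, epithelial genes and mesenchymal genes. Without the genes that did not pass the filter in the 6 shSigma libraries they were -0.82, -0.81 and 0.56.

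Other factors known to drive EMT moved in both directions, in shares near those of all genes when all that passed were counted. Of 18 of 23 that passed in spheres, 7 were higher and 6 lower, and of 17 in adherent cells 4 were higher and 6 lower (median log2 0.11 and -0.13). These were 38.9% and 33.3% in spheres, beside 30.2% and 30.9% of all genes, and 23.5% and 35.3% in adherent cells, beside 22.3% and 27.7%. SNAI3 and TCF4 in spheres, and TCF4 in adherent cells, passed only through shCtrl, so their direction was fixed by the filter. Without them 7 were higher and 4 lower of 16 in spheres, and 4 higher and 5 lower of 16 in adherent cells. ETS1, a transcription factor of invasive cells, fell in adherent cells and rose in spheres (log2 -0.74 ± 0.06 and 1.22 ± 0.07), with an interaction of 1.90 (edgeR adjusted p = 1.38e-08). KLF8, a repressor of CDH1, fell in both (log2 -1.53 ± 0.11 and -1.66 ± 0.14).

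The corepressors and enzymes that work with these factors also moved both ways. Of 17 that passed, 4 rose and 7 fell in spheres, and 1 rose and 7 fell in adherent cells (median log2 -0.10 and -0.17). The shares were 23.5% and 41.2% in spheres and 5.88% and 41.2% in adherent cells, beside the same shares of all genes as above. CTBP2, a corepressor bound by ZEB1, rose in both cultures (log2 0.59 ± 0.05 and 0.57 ± 0.06), while PRMT5 and HDAC1, enzymes recruited by Snail, fell in both (PRMT5 log2 -0.88 ± 0.05 and -1.39 ± 0.07, HDAC1 log2 -0.49 ± 0.05 and -1.04 ± 0.09). Of 18 regulators of the stability of these proteins, 1 rose and 7 fell in spheres and 2 rose and 5 fell in adherent cells (median log2 -0.08 and -0.03), the last being 27.8% beside 27.7% of all genes, and the 7 being 38.9% beside 30.9%. Among 25 signalling genes tested in spheres 16 rose (64%, beside 30.2% of all genes) and 7 fell (28%, beside 30.9%), including higher MET and IL6 (log2 1.67 ± 0.07 and 2.83 ± 0.15) and lower CTNNB1 and JAG1 (log2 -0.67 ± 0.05 and -1.27 ± 0.13). In adherent cells 5 rose (20%, beside 22.3%) and 10 fell (40%, beside 27.7%) of 25 (median log2 0.24 in spheres and -0.04 in adherent cells).

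Of the other intermediate filament and linker genes that can accompany VIM, 8 of 10 passed, and 4 rose and 4 fell in spheres, and 1 rose and 4 fell in adherent cells (median log2 0.00 and -0.29), where 61.1% and 50.0% of all genes were called in either direction. GFAP, the filament protein of astrocytes, rose in both cultures from a low level (log2 3.81 ± 0.28 and 1.48 ± 0.25), from 2 to 12 counts in shCtrl spheres to 118 to 133 in shSigma spheres. In spheres GFAP, which is among the 4 that rose, passed the filter only through shSigma libraries. Its direction there was fixed by the filter. NES, the filament protein nestin, fell in both (log2 -1.33 ± 0.10 and -1.46 ± 0.16).

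The antisense RNAs were read beside their partners, since the use of strand in counting is not given in the sources used here and reads of the shared exons (396 bases for ZEB1, 656 for VIM and 1299 for ZEB2) cannot be assigned with certainty. ZEB1-AS1 rose 1.98-fold in spheres with shSigma (log2 0.98 ± 0.13, edgeR adjusted p = 4.08e-05) and did not pass in adherent cells (log2 -0.11 ± 0.12, edgeR adjusted p = 0.474). VIM-AS1 did not pass in either culture (log2 -0.29 ± 0.26 in spheres, edgeR adjusted p = 0.347, and -0.11 ± 0.25 in adherent cells, edgeR adjusted p = 0.739). ZEB2-AS1 had at most 2 counts per library.

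Over the 12 libraries, log2 CPM of ZEB1 followed that of VIM with Pearson's r = 0.98 and that of ZEB2 with r = 0.97, and SNAI2, at its low counts, had r = 0.80 with ZEB1, 0.79 with ZEB2 and 0.86 with VIM, while r of ZEB1 with SNAI1 was -0.02 and with TWIST2 -0.05. The 12 points share 4 groups and their differences in depth, and these values are descriptions. The 3 genes most like ZEB1 among 14059 were SLC30A1, CRTAP and ABRAXAS1 (r = 0.994, 0.991 and 0.990). Those most like ZEB2 were ARPC5, DOCK10 and BMPER (r = 0.992, 0.992 and 0.991), and those most like VIM were CRTAP, MSRB3 and ABRAXAS1 (r = 0.993, 0.992 and 0.990). SNAI1 was most like WDR90, CHTF18 and CNKSR1 (r = 0.955, 0.945 and 0.945) and TWIST2 most like MRFAP1L1, LGALS8-AS1 and ARMC12 (r = 0.770, 0.740 and 0.738).

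The E-box bound by ZEB and Snail factors, CACCTG on either strand (CAGGTG on the other), was counted in RefSeq promoter windows of GRCh38.p14 from 250 bases before to 50 bases after each start. It was present in 20.6% of all 35116 windows. It was present in 21 of 35 windows (60.0%) of the 26 epithelial genes with a sequence, of 45, in 5 of 14 windows (35.7%) of 11 of 17 epithelial safeguards and in 4 of 40 windows of 27 of 47 mesenchymal genes. Counted by gene, in any window, 12 of the 15 epithelial genes called lower with shSigma in spheres held it. So did 6 of 6 that were not called and 1 of 3 called higher, beside 24.1% of all 27305 genes. The E-box was thus not more frequent in epithelial genes that fell than in those not called. Among the members, 2 of 12 windows held it, both of ZEB1. Base composition was not matched in these shares, and a motif is a description, not a bound site.

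The promoters of 2 genes that fell (CLDN7 and MIR200CHG) and 2 that rose (ZEB1 and VIM) are shown with the E-box in capitals. For each gene the window nearest the start of its GENCODE canonical transcript is shown, which for CLDN7 and ZEB1 was also the window with the most E-boxes. The CLDN7 window held 5 and the other CLDN7 window 0. The ZEB1 window held 3, and of its 7 windows 5 held 0. MIR200CHG held 1 and VIM 0, each with 1 window. No window of SNAI1, SNAI2, TWIST1 or CDH1 is shown.
CLDN7 promoter, chr17:7262429-7262728, minus strand: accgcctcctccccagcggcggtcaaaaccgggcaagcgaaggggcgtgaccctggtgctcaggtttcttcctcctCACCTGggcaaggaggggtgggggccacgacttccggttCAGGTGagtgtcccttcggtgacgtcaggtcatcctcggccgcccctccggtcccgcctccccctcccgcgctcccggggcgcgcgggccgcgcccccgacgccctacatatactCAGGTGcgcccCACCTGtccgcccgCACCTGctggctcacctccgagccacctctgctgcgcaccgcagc
MIR200CHG promoter, chr12:6962995-6963294, plus strand: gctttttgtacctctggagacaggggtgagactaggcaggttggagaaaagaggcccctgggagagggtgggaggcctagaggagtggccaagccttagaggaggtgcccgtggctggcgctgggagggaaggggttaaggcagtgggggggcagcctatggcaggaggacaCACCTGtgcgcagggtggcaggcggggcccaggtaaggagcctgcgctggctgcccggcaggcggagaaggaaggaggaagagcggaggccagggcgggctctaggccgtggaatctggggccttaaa
ZEB1 promoter, chr10:31318966-31319265, plus strand: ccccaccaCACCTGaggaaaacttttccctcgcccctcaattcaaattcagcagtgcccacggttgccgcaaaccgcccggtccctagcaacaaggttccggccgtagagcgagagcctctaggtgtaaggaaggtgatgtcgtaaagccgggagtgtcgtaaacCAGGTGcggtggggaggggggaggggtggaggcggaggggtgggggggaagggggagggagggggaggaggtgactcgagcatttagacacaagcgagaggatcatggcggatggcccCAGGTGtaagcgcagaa
VIM promoter, chr10:17227991-17228290, plus strand: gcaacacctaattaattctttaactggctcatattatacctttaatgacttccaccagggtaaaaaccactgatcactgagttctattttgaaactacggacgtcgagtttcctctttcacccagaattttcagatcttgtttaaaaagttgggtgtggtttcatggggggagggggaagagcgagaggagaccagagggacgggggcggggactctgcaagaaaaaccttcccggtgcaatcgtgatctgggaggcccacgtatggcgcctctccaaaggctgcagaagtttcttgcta

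Markers of fibroblasts were counted because they share genes with the mesenchymal list. The summed level of the 10 was 5.30 to 10.2 CPM in adherent shCtrl, 3.66 to 6.04 in adherent shSigma, 20.9 to 26.8 in tumor sphere shCtrl and 10.43 to 15.04 in tumor sphere shSigma libraries, mainly from COL1A1. LUM and THY1 were at 0 in every library. The sum was highest in the group where ZEB1, ZEB2 and VIM were lowest, and the part of such cells in the results was not tested. In these bulk libraries a smaller share of mesenchymal cells and less of these RNAs per cell cannot be told apart.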

How the data were processed

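RNA-seq libraries of DU145 shCtrl and shSigma cells, grown attached or as tumor spheres, were analysed from the raw counts per gene deposited by the authors. They prepared directional poly(A) libraries from 800 ng of RNA and sequenced 75 bases from one end. The submitters' processing notes name STAR 2.6.1c and GRCh38.p12. The gene annotation, the strand setting and the handling of multiply mapped reads are not given in the sources used here. Replicate libraries differ by more than counting noise.

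Counts were tested with edgeR 4.0.16 in R 4.3.3 (limma 3.58.1), with TMM factors, filterByExpr at a minimum count of 10 and the robust two-sided quasi-likelihood test, each comparison fitted on its own 6 libraries and the interaction on all 12. P-values were Benjamini-Hochberg adjusted over all genes tested, and calls needed an adjusted p under 0.05. Intervals are 95% (normal quantile times SE). An exact permutation test of 3 against 3 libraries cannot go below p = 0.1. Poisson intervals of ratios and the floor of 3 counts cover counting error only. Genes were matched to GENCODE release 44 (26153 of 28747 identifiers had a symbol), whose exon lengths gave FPKM.

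The members and lists were chosen with earlier results of these data known. The text names the 8 members, CDH1, antisense partners, the called genes with the largest statistics of each list (up to 2 per direction) with a mean of at least 1 CPM, and the 3 genes most correlated with each member. Cell type markers come from lists of their own. Some genes under this rule, the target of the hairpin among them, are not reported here. OVOL2 falls outside the rule and was chosen after its values were seen. The scripts were tested on simulated counts with known changes. The tests were repeated with DESeq2 1.42.0, with scaling by DESeq2 size factors or upper quartiles, with a looser and a tighter filter on low counts, with the 12 libraries fitted together, with replicate numbers as a block, with stricter call rules and with single libraries removed. Figures used Python 3.11.15 and matplotlib 3.10.9.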

Additional observations from a re-analysis of the deposited data

Results flagged for a closer look

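3 genes changed differently with the hairpin in the 2 cultures, by the interaction test. ZEB1 had a log2 difference between knockdown effects of 3.57, ZEB2 of 3.39 and VIM of 1.87, each larger in tumor spheres (edgeR adjusted p = 2.84e-08, 1.33e-06 and 7.26e-08). All 3 genes were lowest in the tumor sphere shCtrl libraries.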

How the results depend on the processing

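The calls of ZEB1, ZEB2 and VIM in tumor spheres, in the interaction and in shCtrl spheres against adherent cells kept their direction and their side of the threshold under every alternative that gave a value. Over all single genes, 3617 of 3791 alternatives kept the call, 152 lost it, 22 gained it and 0 reversed it. Adherent calls were less stable. With a fold threshold of 2, the members called in adherent cells were 1 instead of 4, and at an adjusted p under 0.01 also 1. With libraries left out in turn they were 2 to 4. In tumor spheres the range was 3 to 5, in the interaction 3 to 3, in shCtrl cells across cultures 4 to 4 and in shSigma cells 1 to 3. In shSigma cells across cultures 1 of the 2 calls remained over 2-fold and 1 at an adjusted p under 0.01. Requiring 10 counts in every library left 2 of the 4 calls in shCtrl cells across cultures, since ZEB2 and SNAI2 were then not tested.

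The replicate number as a block left 1 member called in adherent cells (ZEB2), since ZEB1, SNAI2 and VIM had edgeR adjusted p of 0.0522, 0.0818 and 0.103. Between hairpins, deviations of same-numbered libraries correlated at -0.572, -0.0165 and -0.817 in adherent cells and at 0.0535, 0.00454 and -0.0826 in spheres. Between cultures they correlated at 0.265, -0.0364 and 0.379 with shSigma and at -0.427, -0.0573 and 0.226 with shCtrl. Deviations from a mean of 3 libraries depend on each other, so these values cannot show whether the numbers pair the samples. Over all genes the block gave 2495 interaction calls instead of 4024. At an adjusted p under 0.01 there were 2508 of these, and 3911 instead of 6414 in shSigma cells across cultures. With the fold threshold 1889 instead of 6886 genes were called in adherent cells, 1806 instead of 8414 in spheres, 1210 in the interaction, 2180 instead of 7404 and 1270 in shCtrl and shSigma cells across cultures. Depth limits TWIST1, CDH2 and SNAI2.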
